A study of Mus musculus with 2 samples.

Results

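Postn, Cilp, Meox1, Ltbp2, Thbs4, Fap, Prg4 and Comp are 8 genes tied to fibroblast activation, and they are 8 of the 55357 genes listed for each library of mouse heart cells. They were found by their symbols, and they had been selected from what these same libraries show of them: their molecule counts in each library, the cells that carry them, how often they occur together in a cell, and their cell types. All values of this kind are therefore given as a description, with no test.

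Heart fibroblasts build and turn over the collagen scaffold between the muscle cells. Under injury or raised load a part of them is activated, secretes more matrix and may become contractile, and TGF-beta is the best known signal for this change. Matricellular proteins such as periostin are secreted into the matrix and adjust how cells attach to it, and in the healthy adult heart they are known to be scarce. Pericytes, which wrap the capillaries, share several genes with fibroblasts.

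The study dissociated whole hearts into single cells and captured them in droplets, where the barcode of a droplet marks the cell and a molecular tag (unique molecular identifier, UMI) marks each captured mRNA. The Sham library came from C57BL/6 mice which had the operation without the narrowing of the aorta, although the design text calls them uninjured, and their age and sex are not in the labels. The TAC library came from male C57BL/6 mice operated on at 8 weeks of age and kept for 6 weeks with transverse aortic constriction, which overloads the left ventricle. Each library pooled 3 to 5 hearts, so that there was 1 sample per condition, no replicate and no test between conditions.

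The Sham library held 28146691 UMIs in 9935 barcodes and the TAC library 29108986 UMIs in 9932 barcodes, with 32 barcode sequences in both, and 9475 and 9452 cells were kept after doublets were removed. Levels below are UMIs per 1000000 UMIs of the cells in question (counts per 1000000, CPM), and the interval after a level, share or ratio is an exact 95% one that covers counting error only. The clusters called fibroblasts, 2290 Sham and 2127 TAC cells, had all 8 fibroblast markers (Pdgfra, Tcf21, Col1a1, Col1a2, Col3a1, Dcn, Lum and Dpt) at 13.5 to 126 times the level of the other cells. Among the genes that cardiomyocytes are known to induce under load, Myh7 was higher in the TAC cardiomyocytes (ratio 1.36, 1.32 to 1.40), Ankrd1 was at 1.01 (0.968 to 1.05), and Nppa at 0.754 (0.608 to 0.932), Nppb at 0.773 (0.676 to 0.884) and Acta1 at 0.355 (0.294 to 0.426) were lower. These genes thus did not share a direction, and 3 of the 5 were lower in the library labelled TAC. The libraries are named here as labelled. Whether the labels were exchanged was not tested, and an exchange would invert every TAC to Sham ratio below.

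Each of the 8 genes has a known part in the matrix or its control. Postn encodes periostin, the usual marker of activated heart fibroblasts, and lies on chromosome 3 from 54361109 to 54391037 on the plus strand (GENCODE M21 annotation of GRCm38, as for the genes below). Cilp encodes cartilage intermediate layer protein, a secreted matrix protein (chromosome 9, 65265180 to 65280605, plus strand). Ltbp2 encodes a latent TGF-beta binding protein that attaches to fibrillin microfibrils (chromosome 12, 84783212 to 84876532, minus strand). Thbs4 (chromosome 13, 92751590 to 92794818, minus strand) and Comp (chromosome 8, 70373558 to 70382066, plus strand) encode thrombospondins, glycoproteins that bind collagen and calcium. Prg4 encodes lubricin, the proteoglycan that smooths joint surfaces (chromosome 1, 150449412 to 150466165, minus strand). Fap encodes a serine protease of the cell surface, fibroblast activation protein (chromosome 2, 62500943 to 62574075, minus strand). Meox1 encodes a homeobox transcription factor (chromosome 11, 101877510 to 101894374, minus strand).

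Of these loci 3 overlap another annotated gene, and the sources used here do not say if reads were assigned by strand. Prg4 overlaps 524 bp of Tpr, a gene of the nuclear pore with 6573 Sham and 6861 TAC UMIs (ratio 1.01, 0.976 to 1.04). Meox1 overlaps Gm11551 over 4970 bp, and Gm11551 itself had 56 Sham and 73 TAC UMIs. Ltbp2 overlaps D030025P21Rik over 764 bp, which had 1 UMI in each library. The other 5 genes have no overlapping gene in this annotation.

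The start regions of 4 of the 8 genes were matched in the RefSeq promoter table, and they are shown because Postn and Cilp carry the same TATA-like run of letters. Most fibroblast UMIs of all 4 genes lie in the same sub-cluster below, so lying together there is not particular to Postn and Cilp. Each line gives 100 bases 5′ to 3′ on the strand of the gene, from 80 before to 20 after the RefSeq start in GRCm38.p6, and capitals mark TATATAA:
Postn, chr3:54361027-54361126, plus strand: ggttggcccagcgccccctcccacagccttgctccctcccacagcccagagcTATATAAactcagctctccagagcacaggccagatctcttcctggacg
Cilp, chr9:65265100-65265199, plus strand: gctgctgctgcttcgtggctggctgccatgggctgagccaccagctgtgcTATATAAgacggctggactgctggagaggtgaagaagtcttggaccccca
Ltbp2, chr12:84876472-84876571, minus strand: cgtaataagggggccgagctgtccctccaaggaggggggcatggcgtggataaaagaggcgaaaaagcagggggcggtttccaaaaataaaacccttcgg
Thbs4, chr13:92794799-92794898, minus strand: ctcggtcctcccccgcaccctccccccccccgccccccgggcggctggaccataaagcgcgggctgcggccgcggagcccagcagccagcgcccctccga
TATATAA begins at position -28 of Postn and -30 of Cilp, counted from the start of the transcript, and neither Ltbp2 nor Thbs4 holds it in the 300 bases of its entry. Of 32851 promoters of that length 3.24% hold it on either strand. It was 1 of 5 motifs looked for on both strands after the sequences had been read. TATAAA was held by Postn, at -26 and thus overlapping TATATAA, and by none of the other 3 genes (13.6% of promoters). GGAATG was held by Thbs4 alone (14.7% of promoters), and TGACTCA (5.20%) and TAATTA (5.29%) by none of the 4. A missing match says only that these letters are not in the window. Similar runs, such as the ataaa in the Ltbp2 and Thbs4 lines, were not looked for. A second Postn entry of the table, whose start lies 1842 bases from the annotated one, does not hold it.

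Counted over all barcodes, whatever their type, 4 of the 8 genes were at least 1.5-fold lower in the TAC library and 0 at least 1.5-fold higher. Over the 18049 genes with at least 50 UMIs, 4.24% were past this fold in the lower direction and 13.9% in the higher one. The median ratio of TAC to Sham was 0.800 for the 8 genes and 1.05 for all genes tested. The 4 lower genes were Cilp, Ltbp2, Thbs4 and Comp, all secreted matrix proteins, and each of their intervals lay below 1.

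Cilp had 415 UMIs in 203 Sham cells and 284 UMIs in 150 TAC cells, a ratio of 0.662 (0.567 to 0.771). In the kept cells alone, without doublets, it was 0.724 and no longer past 1.5-fold. Ltbp2 had 225 UMIs in 135 Sham cells and 149 in 73 TAC cells, a ratio of 0.640 (0.517 to 0.791). The share of cells with an Ltbp2 UMI went from 1.36% to 0.735%, so the UMIs per carrying cell were no lower in TAC. Thbs4 had 84 UMIs in 33 Sham cells and 54 in 25 TAC cells (ratio 0.622, 0.433 to 0.885), and Comp 85 in 57 and 56 in 43 (ratio 0.637, 0.446 to 0.903). Thbs4 was the most uneven of the 8, since 1 cell held 26.2% of its Sham and 1 cell 27.8% of its TAC UMIs, and 3 cells held at least 50% in each library.

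Postn, the gene for which the group is best known, was almost equal in total: 852 UMIs in 381 Sham cells and 826 UMIs in 382 TAC cells, a ratio of 0.937 (0.851 to 1.03). This interval includes 1, and the total is made up of 2 cell types with opposite differences, given next. Meox1 had 301 and 333 UMIs in 223 and 242 cells (ratio 1.07, 0.913 to 1.25). Fap, which had UMIs in more cells than any of the other 7 genes, was counted 2016 times in 1229 Sham cells and 2220 times in 1346 TAC cells (ratio 1.06, 1.0 to 1.13).

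Prg4 was the only one of the 8 with an excess in TAC that came near the 1.5-fold line, with 388 UMIs in 235 Sham cells and 594 in 382 TAC cells (ratio 1.48, 1.30 to 1.69). A single Sham cell held 56 of its UMIs, 14.4% of the total, and without the top cell of each library the ratio was 1.65. Summed over the 8 genes there were 4366 Sham and 4516 TAC UMIs, a ratio of 1.0 (0.959 to 1.04). Without Fap, 2350 Sham and 2296 TAC UMIs remained, a ratio of 0.945 (0.892 to 1.0).

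**Figure D1:**
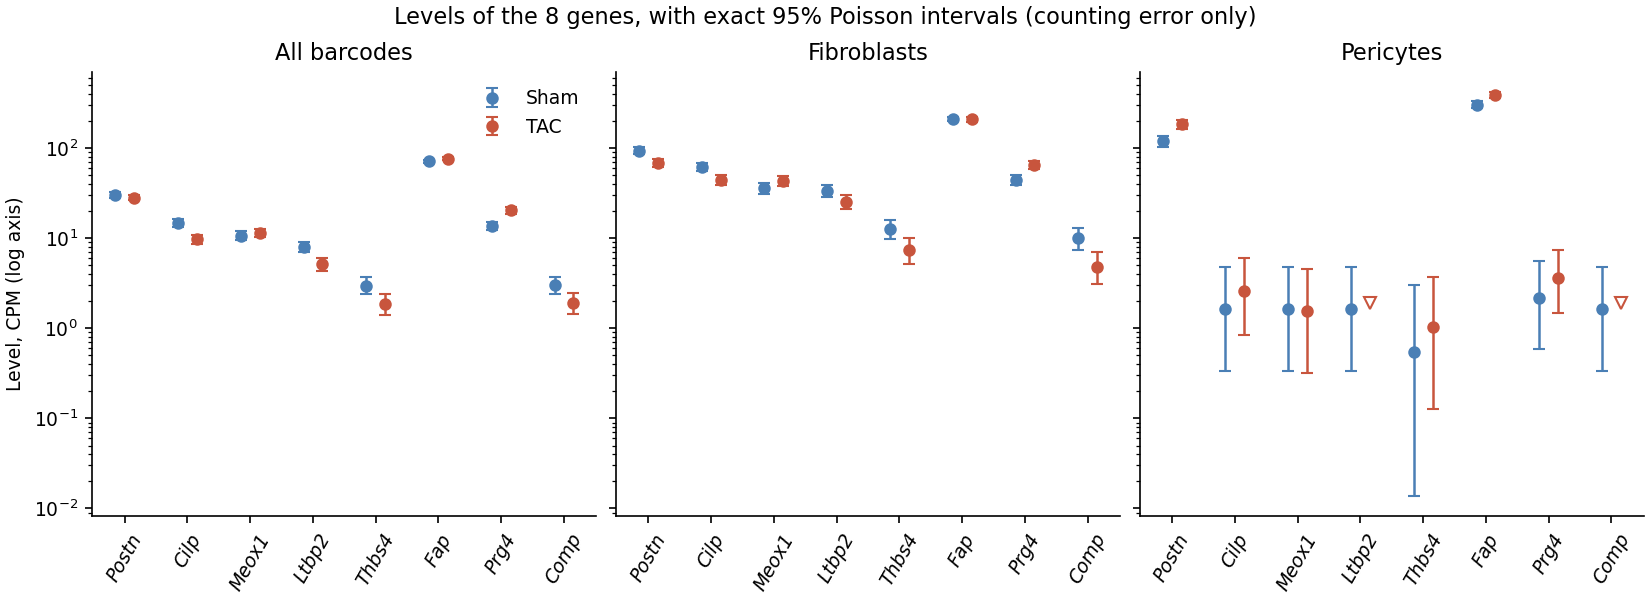
Level of each gene in CPM on a log axis, over all barcodes, in fibroblasts and in pericytes, for the Sham and TAC libraries. Points are the level, bars the exact 95% Poisson interval of the count, and open triangles the upper end of that interval where the count was 0. In pericytes only Postn and Fap stand above 100 CPM, while the other 6 genes have 0 to 7 UMIs there.

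Postn RNA lay mostly in 2 cell types, and its balance between them differed between the libraries. In fibroblasts it was at 512 UMIs in 139 of 2290 Sham cells and 355 UMIs in 63 of 2127 TAC cells, levels of 94.3 (86.3 to 103) and 68.4 (61.5 to 75.9) and a ratio of 0.725 (0.632 to 0.832). In pericytes it was at 218 UMIs in 168 of 1055 Sham cells and 353 UMIs in 245 of 1043 TAC cells, levels of 119 (104 to 136) and 184 (165 to 204) and a ratio of 1.54 (1.30 to 1.83). Fibroblasts held 65.5% of the Postn UMIs of the Sham cells and 47.2% of the TAC cells, while the share of pericytes was 27.9% and 46.9%. The level in CPM was thus higher in pericytes than in fibroblasts in both libraries, with intervals that did not overlap.

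The 2 cell types carried Postn in different ways. In fibroblasts a few cells held a large part of it. The 9 Sham cells with over 10 UMIs held 44.3% of the fibroblast total and the 9 such TAC cells 54.6%, with up to 39 and 30 UMIs in 1 cell. In pericytes no cell had more than 5 UMIs, and 76.8% of the carrying Sham cells and 70.2% of the carrying TAC cells had exactly 1. Fibroblasts with exactly 1 Postn UMI numbered 74 in Sham and 27 in TAC, whereas those with 6 or more numbered 19 and 21. The shortfall of TAC fibroblasts was thus in cells with 1 to 5 UMIs, 120 in Sham and 42 in TAC.

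**Figure D2:**
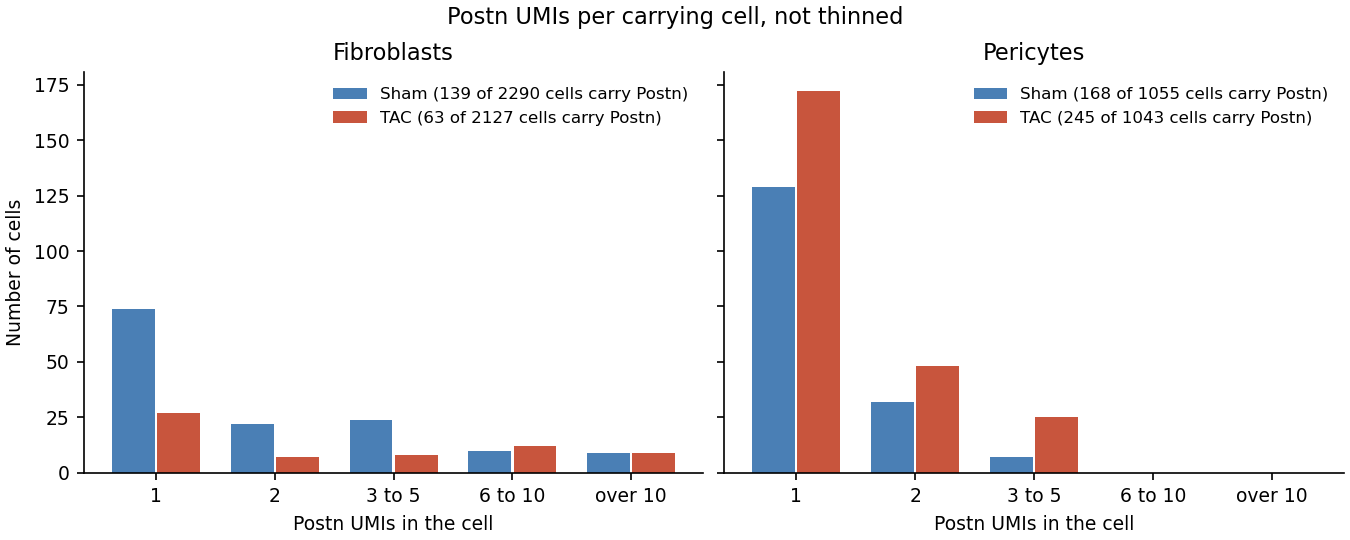
Number of cells (vertical axis) by the number of Postn UMIs in the cell (horizontal axis, binned), among fibroblasts and pericytes that carry Postn, before any thinning. Sham fibroblasts with 1 UMI number 74 against 27 in TAC, while both libraries have 9 fibroblasts with over 10 UMIs and no pericyte with more than 5.

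At 1 depth the contrast was the same. Each cell was thinned to 1000 UMIs, which left 2079 Sham and 2034 TAC fibroblasts and 872 and 955 pericytes. Postn was then seen in 3.90% (3.11 to 4.82) of Sham and 1.82% (1.28 to 2.50) of TAC fibroblasts, and in 10.2% (8.28 to 12.4) and 15.9% (13.7 to 18.4) of pericytes. Without thinning those shares were 6.07% and 2.96% of fibroblasts and 15.9% and 23.5% of pericytes. Cardiomyocytes, which are not known to make periostin, gave 0.121% and 0.0419% at the same depth, and macrophages 0.198% and 0.181%. Median depths before thinning were 2155 and 2268 UMIs in fibroblasts, 1590 and 1700 in pericytes, and 4504.5 and 4916.5 in cardiomyocytes.

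Fibroblast RNA in the pericyte clusters was measured with the 8 fibroblast markers, which summed to 302 CPM in Sham and 323 in TAC pericytes against 3078 and 3806 in fibroblasts. All 8 markers were above 0 in the pericytes of both libraries, with Tcf21 lowest at 4 UMIs in Sham and Pdgfra at 5 in TAC. Pericytes with a Postn UMI had 286 (232 to 348) CPM of these markers in Sham and 302 (256 to 353) in TAC, and pericytes without one had 306 (278 to 335) and 331 (302 to 363). Marker levels of fibroblasts were therefore no higher in the pericytes that carried Postn. The summed markers of pericytes were also alike, at 10132 against 9939 CPM in Sham and 10711 against 10819 in TAC.

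Fap had the same pair of cell types. It stood at 212 (200 to 224) in Sham and 209 (196 to 221) in TAC fibroblasts, a ratio of 0.984 (0.905 to 1.07), with UMIs in 641 and 638 cells. In pericytes it was at 305 (281 to 332) and 388 (361 to 417), a ratio of 1.27 (1.14 to 1.42), with UMIs in 368 and 453 cells. As for Postn, the pericyte level was above the fibroblast level in both libraries. Smooth muscle cells had 67.6 (30.9 to 128) and 92.2 (42.2 to 175), on 9 UMIs in each library, and epicardial or mesothelial cells 76.6 (15.8 to 224) and 16.2 (0.409 to 90), on 3 and 1 UMIs. Macrophages had 33.1 (25.9 to 41.6) and 24.1 (18.5 to 30.9) and endothelial cells 11.5 (7.65 to 16.6) and 21.1 (16.3 to 26.7), so these 2 types were apart in Sham but not in TAC, where their intervals overlap.

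In Sham, Cilp, Ltbp2 and Thbs4 had the highest shares of their UMIs in fibroblasts, while in TAC the share of Meox1, 71.8%, was near that of Thbs4. Fibroblasts held 89.8% of the Sham and 83.8% of the TAC Cilp UMIs, 85.5% and 91.0% of those of Ltbp2, and 84.0% and 70.4% of those of Thbs4. The pericytes of each library had between 0 and 5 UMIs of any of these 3 genes. Cardiomyocytes, which supply more UMIs than any other type in these libraries, held 24 and 30 Cilp UMIs (1.78 and 2.29 CPM), 15 and 9 of Ltbp2 and 9 and 12 of Thbs4, all far below the fibroblast level.

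Meox1 and Prg4 shared a second site in the endothelium, and Comp, given below, had UMIs there too. Endothelial cells had 65 Sham and 61 TAC UMIs of Meox1, at 26.7 (20.6 to 34.1) and 18.9 (14.4 to 24.3) CPM, against 36.1 (31.2 to 41.5) and 43.2 (37.7 to 49.2) in fibroblasts. For Meox1 the lymphatic endothelial cells reached 32.8 (12.0 to 71.4) and 78.2 (47.8 to 121), on 6 and 20 UMIs. Prg4 in endothelial cells was at 43.2 (35.3 to 52.3) and 48.0 (40.7 to 56.2), and in fibroblasts at 45.0 (39.5 to 51.0) and 65.6 (58.8 to 72.9). The 2 types were thus alike in Prg4 in Sham and apart in TAC, where the intervals did not overlap. At 1000 UMIs per cell, Prg4 was seen in 2.84% (1.94 to 4.01) of Sham and 4.59% (3.59 to 5.76) of TAC endothelial cells, and in 0.0989% and 0.181% of macrophages.

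In cardiomyocytes Prg4 was the gene of the 8 with the ratio farthest from 1, with 4 UMIs in 4 Sham cells and 40 UMIs in 37 TAC cells, levels of 0.297 (0.0808 to 0.760) and 3.05 (2.18 to 4.15) and a ratio of 10.3 (3.72 to 39.6). The summed fibroblast markers were at 29.4 and 42.9 CPM in the same cardiomyocytes, with all 8 above 0 and Tcf21 lowest at 2 and 3 UMIs, and the endothelial ones at 29.4 and 33.2. Their part in the Prg4 values was not tested. Comp was rare: 54 of its Sham UMIs and 25 of its TAC UMIs lay in fibroblasts, 12 and 16 in endothelial cells, and 5 and 7 in the few lymphatic endothelial cells, at 27.3 (8.88 to 63.8) and 27.4 (11 to 56.4) CPM. In fibroblasts Comp was at 9.95 (7.47 to 13.0) and 4.82 (3.12 to 7.12), so the intervals of the 2 types overlap in Sham and not in TAC.

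In the smallest types, counts of Postn were low. Schwann cells had 7 Sham UMIs in 2 cells and 5 TAC UMIs in 3 cells, at 228 (91.8 to 470) and 183 (59.5 to 427) CPM, which overlaps the level of pericytes. Smooth muscle cells had 8 Sham UMIs in 3 cells and 0 of 97590 UMIs in TAC, which allows up to 30.7 CPM at a limit of 3 counts.

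**Figure D3:**
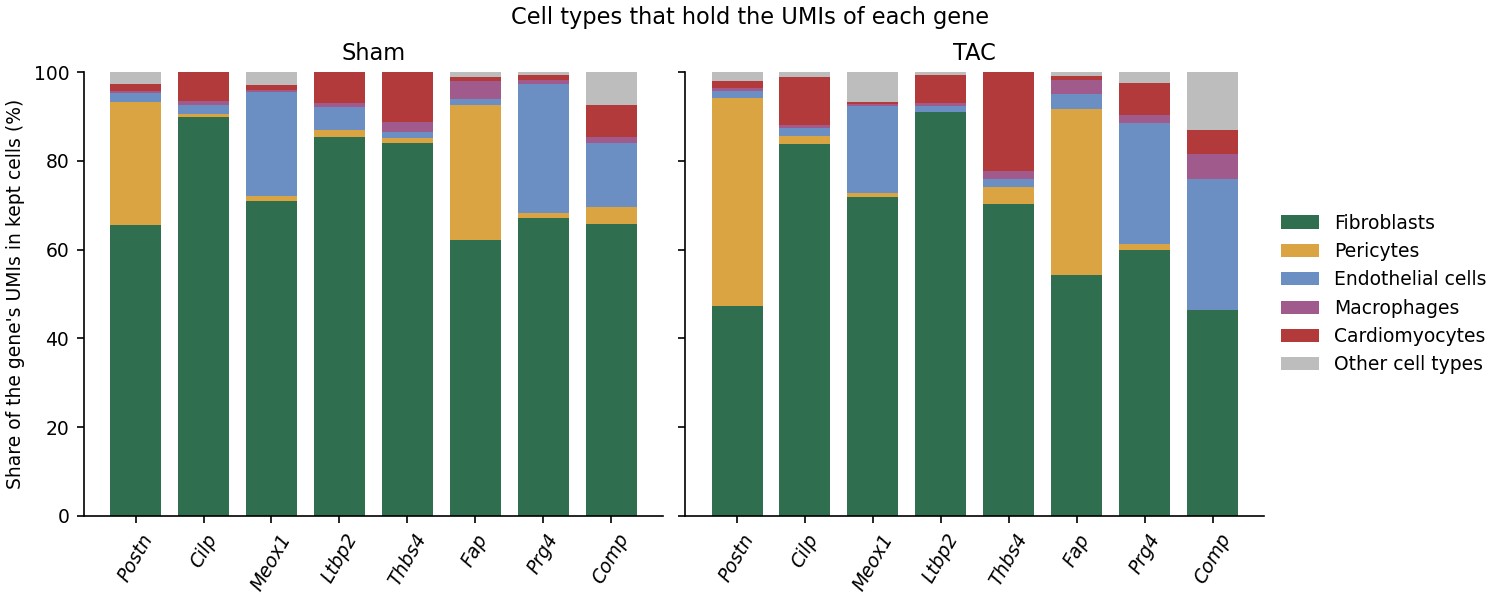
Share of each gene's UMIs in kept cells (vertical axis, percent) by the cell type that holds them, in the Sham and TAC libraries. The pericyte part of Postn is 27.9% in Sham and 46.9% in TAC, and Cilp, Ltbp2 and Thbs4 are at least 70.4% in fibroblasts.

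Within fibroblasts alone, 2 of the 8 genes were at least 1.5-fold lower in TAC and 0 at least 1.5-fold higher, where 4.33% and 10.5% of the 12298 genes tested in fibroblasts passed in these directions. The 2 were the thrombospondins. Thbs4 had 68 UMIs in 18 Sham and 38 UMIs in 11 TAC fibroblasts (ratio 0.585, 0.382 to 0.882), and Comp 54 UMIs in 29 and 25 UMIs in 16 (ratio 0.484, 0.289 to 0.792). The median ratio in fibroblasts was 0.737 for the 8 genes and 1.01 for all genes tested.

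Postn, Cilp and Ltbp2 had nearly the same ratio there. Cilp was at 61.9 (55.5 to 68.9) in Sham and 44.9 (39.3 to 51.1) in TAC fibroblasts (ratio 0.726, 0.611 to 0.860), and Ltbp2 at 33.7 (29.0 to 39.0) and 25.3 (21.1 to 30) (ratio 0.749, 0.594 to 0.942). The number of fibroblasts with a UMI went from 146 to 102 for Cilp and from 102 to 56 for Ltbp2. Meox1 and Prg4 were higher instead, with ratios of 1.2 (0.983 to 1.46) and 1.46 (1.23 to 1.73), and the interval of Meox1 includes 1. Without the top cell of each library the Prg4 ratio in fibroblasts was 1.74. All of these ratios compare 1 pool of hearts with 1 other, so that the condition and the library cannot be told apart.

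Fibroblasts with a Postn UMI carried another of the 7 genes other than Fap more often than fibroblasts without one. Among fibroblasts thinned to 1000 UMIs, 39.5% (28.8 to 51.0) of the 81 Postn-positive Sham cells carried another of these genes, against 10.3% (9.01 to 11.7) of the Postn-negative ones. In TAC the shares were 56.8% (39.5 to 72.9) of 37 positive cells and 8.61% (7.42 to 9.93) of negative ones. With Fap counted among the partners the shares were 48.1% (36.9 to 59.5) against 25.7% (23.8 to 27.7) in Sham and 62.2% (44.8 to 77.5) against 25.7% (23.8 to 27.7) in TAC. Postn was named first in the group, so these shares describe how it was put together.

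Ltbp2 and Cilp were frequent partners of Postn in both libraries. Of the Postn-positive Sham cells 13 of 81 (16.0%, 8.83 to 25.9) carried Ltbp2, against 1.75% (1.22 to 2.43) of the negative ones, and 13 (16.0%) carried Cilp, against 3.15% (2.43 to 4.02). In TAC 6 of 37 (16.2%, 6.19 to 32.0) carried Ltbp2 against 0.951% (0.574 to 1.48), and 8 (21.6%, 9.83 to 38.2) carried Cilp against 2.15% (1.56 to 2.89). Prg4 was seen in 10 of the Sham (12.3%, 6.08 to 21.5) and 11 of the TAC cells (29.7%, 15.9 to 47.0), against 2.35% and 3.11% of the negative ones. Comp, on the other hand, was seen in 4 of the 81 Sham cells (4.94%, 1.36 to 12.2) but in 0 of the 37 TAC cells, whose interval reaches 9.49%.

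Fap stood apart, while Meox1 went in the direction of the other genes. Fap was seen in 14.8% (7.90 to 24.5) of the Postn-positive and 16.7% (15.1 to 18.4) of the Postn-negative Sham fibroblasts, and in 10.8% (3.03 to 25.4) and 18.3% (16.6 to 20) in TAC, so an excess in Postn-positive cells was not detectable at this depth. Any of the other 7 genes occurred in 11% (7.89 to 14.8) of the Fap-positive against 14.4% (12.7 to 16.1) of the Fap-negative Sham cells, and in 7.32% (4.88 to 10.5) against 10.9% (9.47 to 12.5) in TAC. Fap-positive fibroblasts thus did not hold more of the other 7 genes in either library. For Meox1 the shares of 19.0% (11 to 29.4) and 16.4% (8.49 to 27.5) were above those of Meox1-negative cells at 10.4% (9.10 to 11.8) and 7.22% (6.11 to 8.45), with overlapping intervals in Sham but not in TAC.

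**Figure D4:**
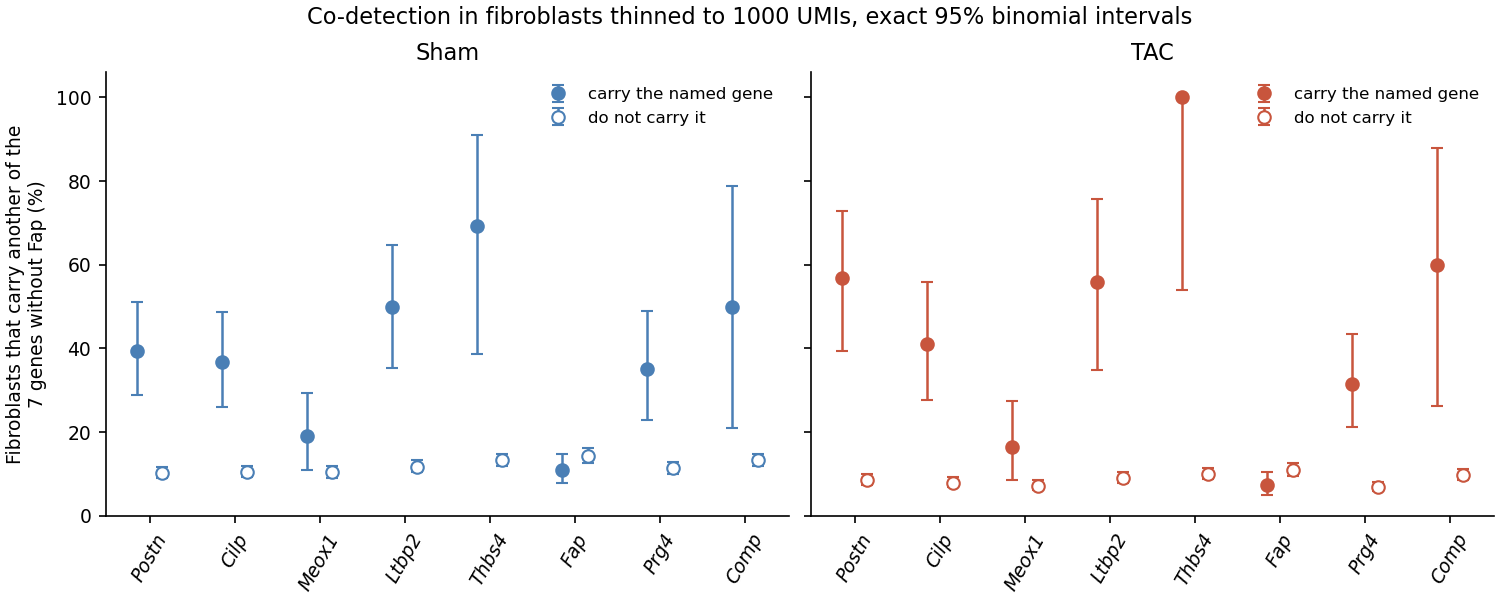
Share of fibroblasts (vertical axis, percent, each cell thinned to 1000 UMIs) that carry another of the 7 genes without Fap, for cells with the gene named on the horizontal axis (filled points) and cells without it (open points), in Sham and TAC. Bars are exact 95% binomial intervals. For Postn the values are 39.5% against 10.3% in Sham and 56.8% against 8.61% in TAC, and Fap is the only gene whose filled points lie below its open ones.

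Few fibroblasts carried several of the genes at once. At 1000 UMIs, 84 of 2079 Sham cells (4.04%, 3.24 to 4.98) and 65 of 2034 TAC cells (3.20%, 2.48 to 4.06) had at least 2 of the 8, and 23 and 15 cells had at least 3. Without thinning there were 213 (9.30%) and 186 (8.74%) such cells. These 213 Sham and 186 TAC fibroblasts held 78.7% and 93.2% of the Postn UMIs of their type, 75% and 77.3% of the Cilp UMIs and 97.1% and 97.4% of the Thbs4 UMIs, but 17.3% and 17.0% of the Fap UMIs. Their median depth was 2921 and 2994 UMIs against 1904 and 2070 in fibroblasts with none, so the unthinned count also follows depth. The richest Sham cell had 6 of the genes, with 30 Postn, 14 Cilp, 4 Comp and 3 Meox1 UMIs among its 3722 UMIs. In TAC a cell with 5532 UMIs had 30 of Postn, 15 of Thbs4, 9 of Meox1, 7 of Ltbp2 and 7 of Cilp.

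When the fibroblasts of both libraries were clustered again, with the 8 genes, their relatives and the listed matrix genes left out, 1 sub-cluster held more Postn UMIs than any other. It was led by Klhl29, Mical2, Nox4, Etl4 and Lhfpl2, of which Nox4 encodes an NADPH oxidase. It had 318 Sham cells (13.9% of fibroblasts) and 90 TAC cells (4.23%), and it was singled out by its Postn count, so its Postn level is a description. Most of its cells are of 1 library, and the library and a cell state cannot be told apart here. In Sham it held 59.8% of the fibroblast UMIs of Postn, 59.5% of Cilp, 62.8% of Ltbp2, 73.5% of Thbs4 and 68.5% of Comp. In TAC the shares were 63.1%, 55.4%, 53.4%, 92.1% and 60%. Meox1 with 36.7% and 32.1% and Prg4 with 27.5% and 18.5% were less concentrated, and Fap with 14.3% and 3.97% had about the share of the cells themselves.

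The TAC cells of this sub-cluster were fewer and richer. Postn was at 367 (327 to 411) CPM in the Sham and 812 (709 to 926) in the TAC cells, a ratio of 2.21 (1.85 to 2.64), and in the remaining fibroblasts at 44.8 (38.9 to 51.4) and 26.7 (22.3 to 31.7), a ratio of 0.595 (0.474 to 0.744). Cilp had ratios of 1.95 (1.55 to 2.44) inside and 0.715 (0.549 to 0.93) outside. For Meox1 the ratio inside was 3.02 (2.15 to 4.25), for Prg4 2.84 (1.98 to 4.07), for Ltbp2 1.84 (1.35 to 2.50) and for Thbs4 2.12 (1.33 to 3.32). Outside it was 1.15 (0.899 to 1.47) for Meox1, 1.46 (1.21 to 1.78) for Prg4, 0.839 (0.584 to 1.2) for Ltbp2 and 0.156 (0.0294 to 0.534) for Thbs4. The Thbs4 ratio outside rests on 18 Sham and 3 TAC UMIs, and a single Sham cell held 11 of those 18.

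Fap was at 0.792 (0.553 to 1.11) inside and 0.986 (0.903 to 1.08) outside, and Comp at 1.23 (0.625 to 2.29) and 0.550 (0.225 to 1.27), intervals that all include 1. Of the sub-cluster's cells, 21.7% (17.3 to 26.6) in Sham and 27.8% (18.9 to 38.2) in TAC had a Postn UMI, with 4.43 and 8.96 UMIs per carrying cell. Cilp was seen in 21.4% (17.0 to 26.3) and 40.0% (29.8 to 50.9), and at least 2 of the 7 genes without Fap in 24.5% (19.9 to 29.6) and 45.6% (35.0 to 56.4). The medians of 2242 and 2870 UMIs per cell differ between the libraries, and their part in these unthinned shares was not tested. At the coarser resolution of 0.5 the sub-cluster with most Postn took 28.1% of Sham and 7.24% of TAC fibroblasts and the Postn ratio inside it was 2.69. It had 643 Sham and 154 TAC cells with 305 and 200 Postn UMIs, so it took in many Sham cells with little Postn. At that resolution no sub-cluster was led by cardiomyocyte genes, and the part of such cells in this ratio was not tested.

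A second, smaller group was led by Gm17268, Ccl2, Ccl7, Adam12 and Mt2, of which Ccl2 and Ccl7 are chemokines that draw in monocytes. It had 25 Sham and 55 TAC cells with 53 and 82 Postn UMIs, levels of 760 and 485 CPM, and 65 and 77 Prg4 UMIs, levels of 932 and 455. Among these 25 Sham cells 1 cell held 39 of the Postn UMIs and 1 held 56 of the Prg4 UMIs, so no order between the libraries is read from these levels. No Thbs4 or Comp UMI was found there in either library. The exact intervals of these counts of 0 reach 52.9 CPM in Sham and 21.8 CPM in TAC. Both limits are above the levels of Thbs4 and Comp over all fibroblasts, so no absence is read from them. Another group, led by Gfpt2, Adgrd1 and Ackr3, had 92 Postn UMIs in 273 Sham cells and 17 in 527 TAC cells. A further one was led by the cardiomyocyte genes Tnnt2, Ttn, Myh6 and Ryr2, with 423 Sham and 131 TAC cells, and held 12 and 0 Postn UMIs.

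**Figure D5:**
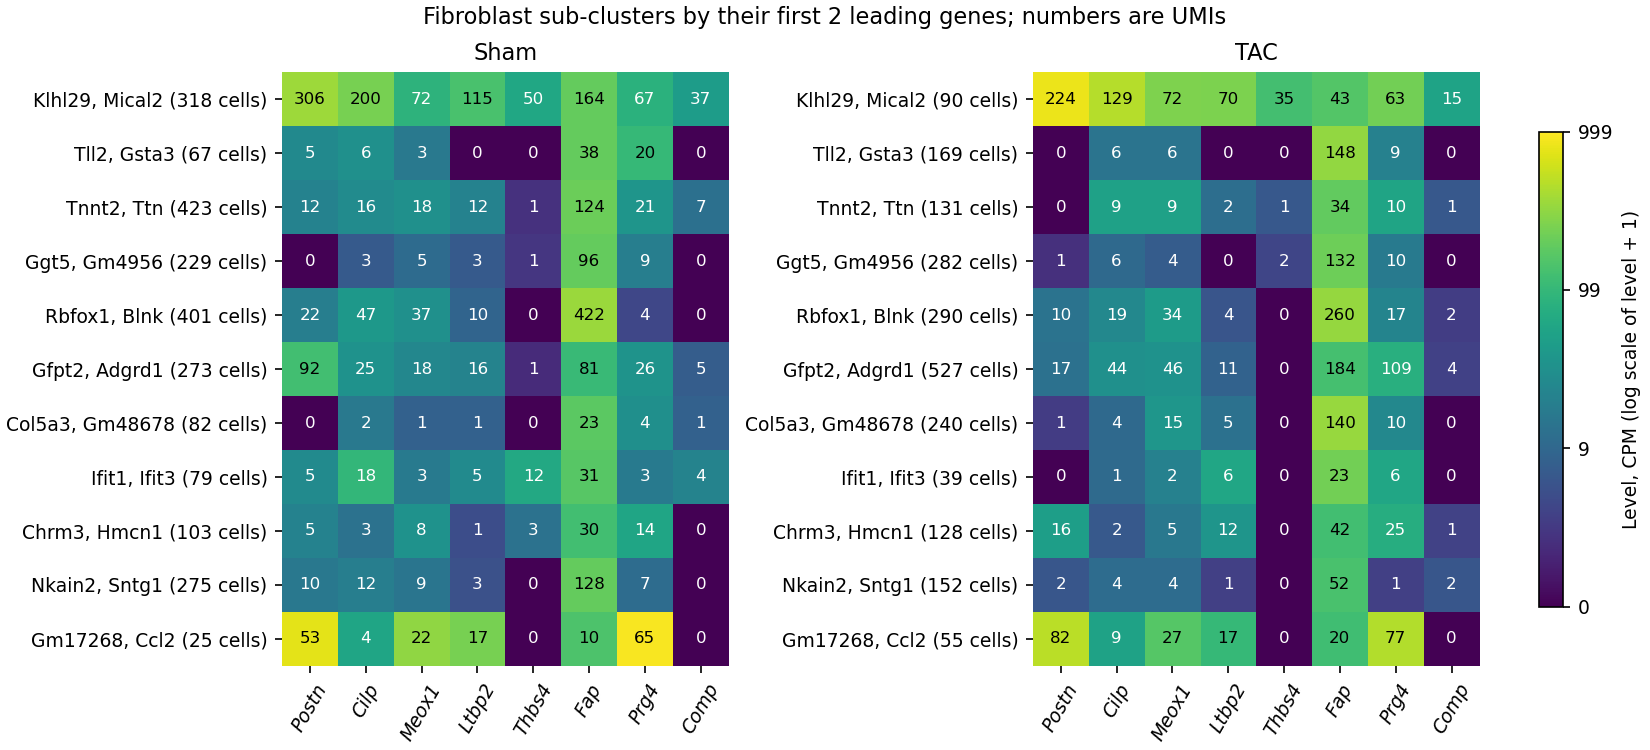
UMI counts (numbers) and levels in CPM (colour, log scale of the level + 1) of the 8 genes in fibroblast sub-clusters, named on the vertical axis by their first 2 leading genes, in Sham and TAC; sub-clusters with under 20 cells in a library are not drawn. The sub-cluster led by Klhl29 and Mical2 has 306 Sham and 224 TAC Postn UMIs in 318 and 90 cells, and Fap is spread over all sub-clusters.

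Fibroblasts with at least 2 of the 8 genes also differed in other genes from those with none. At 1000 UMIs per cell and among 6087 genes with at least 50 UMIs in each library, 0.641% were at least 2-fold higher and 2.20% at least 2-fold lower in both libraries, with 10 CPM added to each level. The 10 with the highest smaller fold were Mical2, Actn1, Lhfpl2, Cdh11, Fmn1, Adam12, Csrp2, Klhl29, Col8a1 and Ccn2. Mical2, an oxidase that acts on actin, had 560 (411 to 744) CPM against 130 (112 to 150) in Sham and 738 (545 to 979) against 113 (96.2 to 131) in TAC. Col8a1, a short-chain collagen, had 3643 (3246 to 4075) against 1263 (1207 to 1322) and 4277 (3789 to 4810) against 984 (934 to 1036). Actn1 and Fmn1 encode proteins of the actin skeleton, Cdh11 encodes a cadherin of mesenchymal cells, and Ccn2 encodes connective tissue growth factor. Apart from Mical2, Klhl29 and Col8a1, these genes had only 7 to 14 UMIs in the cells with at least 2 of the 8, so their folds rest on few molecules.

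Of the gene lists chosen for heart fibroblasts, 2 of 13 measured collagen and matrix genes passed this 2-fold line upward in both libraries (Col8a1 and Col14a1), as did 2 of 11 genes of the TGF-beta pathway (Tgfb3 and Skil), 1 of 5 matricellular genes (Ccn2) and 1 of 2 contractile genes (Actn1). Over all 6087 genes tested 0.641% passed upward and 2.20% downward, and these lists are short. Tgfb3 had only 9 Sham and 8 TAC UMIs in the cells with at least 2 of the genes. Its intervals overlap those of the cells with none in both libraries. Those of Skil, on 24 Sham and 10 TAC UMIs, overlap in TAC and not in Sham. No upward pass in both libraries was found among the 14 measured genes of collagen crosslinking and processing or the 5 transcription factors. The same held for the 10 genes of resting and adventitial fibroblasts. In the other direction were Scara5, Hsd11b1 and Inmt, 3 of those 10 genes of resting fibroblasts, and Mmp14, a membrane protease that cuts collagen. Inmt had only 6 Sham UMIs and 1 TAC UMI in the cells with at least 2 of the genes, again with overlapping intervals. Mmp14 was at 0 UMIs in the 84 Sham and the 65 TAC cells with at least 2 of the genes, which allows up to 35.7 and 46.2 CPM at 3 counts, against 58.0 (46.4 to 71.6) and 56.0 (44.6 to 69.4) in the cells with none. The exact intervals of these counts of 0 reach 43.9 and 56.8 CPM, so they overlap those of the cells with none in TAC. The median log2 fold of the matrix list was 0.72 in Sham and 0.75 in TAC, beside -0.06 and -0.08 for all genes tested. These lists were drawn up with earlier results of the same libraries known.

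Between the libraries, most genes of the collagen and matrix list lay within 1.5-fold in fibroblasts. The counts of the lists below stand beside 10.5% of the 12298 genes tested in fibroblasts at least 1.5-fold higher and 4.33% at least 1.5-fold lower, and with so few genes per list a count of 1 or 2 is not a result about the list. Of the 14 collagen and matrix genes with at least 50 UMIs, Bgn was at least 1.5-fold higher in TAC (ratio 1.58, 1.45 to 1.72) and Aspn (0.489, 0.434 to 0.551) and Col16a1 (0.645, 0.517 to 0.803) at least 1.5-fold lower, and the list's median was 1.09. Col3a1, a main fibrillar collagen of the heart, was at 578 CPM in Sham and 695 in TAC (ratio 1.2, 1.15 to 1.26), Fbn1, which encodes fibrillin, had a ratio of 1.17 (1.13 to 1.21), Col8a1 had 0.840 (0.814 to 0.867) and Col5a2, a minor fibrillar collagen, 0.953 (0.907 to 1.0).

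The matricellular list was the most spread, with 4 of 10 genes at least 1.5-fold higher and 2 lower, beside 10.5% and 4.33% of all genes tested, around a median of 1.26. Tnc, the gene for tenascin-C, had 91 Sham and 259 TAC UMIs (ratio 2.98, 2.34 to 3.82), and Timp1, an inhibitor of matrix metalloproteases, 30 and 93 (ratio 3.24, 2.13 to 5.07). Sparc (1.75, 1.59 to 1.94) and Angptl2 (1.64, 1.40 to 1.94) were higher too, while Ccn5 (0.646, 0.555 to 0.751) and Ptn (0.540, 0.373 to 0.773) were lower and Ccn2 was at 0.821 (0.705 to 0.956). Of the TGF-beta pathway, 0 of 13 genes passed in either direction and the median was 1.2. Its genes with the most fibroblast UMIs were the receptor genes Tgfbr3 at 1.02 (0.976 to 1.06), Tgfbr1 at 0.817 (0.759 to 0.880) and Tgfbr2 at 1.26 (1.16 to 1.38), and Smad3, which relays the signal to the nucleus, at 1.40 (1.30 to 1.51).

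The remaining lists had at most 3 genes past the fold in either direction, to be read against the same 10.5% and 4.33%. Of 16 genes of collagen crosslinking and processing, Serpinh1, a collagen chaperone, was higher (1.75, 1.45 to 2.11) and Loxl3, a lysyl oxidase, lower (0.623, 0.525 to 0.738), around a median of 1.14. Those with the most UMIs were Ddr2, a collagen receptor, at 1.28 (1.21 to 1.35), Adamts2 at 1.21 (1.13 to 1.29), Loxl1 at 1.44 (1.34 to 1.55) and Plod2 at 0.893 (0.819 to 0.973). Of 8 transcription factors Tcf21, which marks resting fibroblasts, was higher (1.53, 1.19 to 1.97) and Runx1 lower (0.590, 0.434 to 0.795). The 4 with the most UMIs lay near 1, with Tbx20 at 0.942 (0.882 to 1.01), Mrtfa at 0.964 (0.893 to 1.04), Prrx1 at 1.08 (0.996 to 1.17) and Runx2 at 0.951 (0.865 to 1.04). Of 4 contractile genes with enough UMIs Cnn2 was higher (1.71, 1.12 to 2.63), Tpm1 was at 1.32 (1.19 to 1.47), Actn1 at 0.711 (0.563 to 0.895) and Tpm2 at 0.961 (0.627 to 1.47). Acta2, the classical gene of contractile myofibroblasts, had only 16 and 9 UMIs in all fibroblasts. Of 12 genes of resting and adventitial fibroblasts Cxcl14 (2.21, 1.77 to 2.77), Ly6c1 and Ly6a were higher and Inmt was lower (0.5, 0.436 to 0.573). In this list Dpep1 had the most UMIs and a ratio of 0.707 (0.672 to 0.744), followed by Pi16 at 0.885 (0.838 to 0.935), Scara5 at 0.921 (0.869 to 0.976) and Smoc2 at 1.01 (0.954 to 1.08). Genes named here for passing 1.5-fold were picked after their values had been seen.

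The closest relatives by family did not share one direction. Thbs2, a thrombospondin with 513 and 386 fibroblast UMIs, was lower in TAC (0.787, 0.688 to 0.900) as Thbs4 and Comp were, Thbs3 was at 0.953 (0.824 to 1.10), and Thbs1 was higher (1.42, 1.11 to 1.82). Ltbp3 was lower (0.751, 0.647 to 0.872) with nearly the ratio of Ltbp2, whereas Ltbp1 (1.07, 1.01 to 1.13) and Ltbp4 (1.05, 0.981 to 1.13) were close to 1. Meox2, the paralog of Meox1, had 84 and 121 UMIs (1.51, 1.13 to 2.02). Tgfbi, which encodes the protein most like periostin, had 95 and 81 UMIs (0.892, 0.655 to 1.21), Dpp4, the protease related to Fap, 155 and 163 (1.10, 0.878 to 1.38), and Vtn, which shares a domain with Prg4, 14 and 15. Cilp2 had 3 Sham and 0 TAC UMIs, and no ratio is read from it.

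Over the 30 clusters of both libraries with at least 20 cells, the genes whose log2 level was most like that of Postn were Loxl2 (Pearson r 0.850), D630033O11Rik (0.816), Kcp (0.811), Rtkn (0.796) and Robo1 (0.793), out of 13743 genes with at least 200 UMIs. Among the 8 genes themselves Cilp and Ltbp2 were most alike (0.935), followed by Ltbp2 and Thbs4 (0.832) and Cilp and Thbs4 (0.823). Postn correlated less with Cilp (0.498) and Ltbp2 (0.480) than Cilp and Ltbp2 did with each other. Comp had an r of 0.037 with Fap and 0.012 with Prg4. Thbs4 (84 Sham and 54 TAC UMIs) and Comp (85 and 56) are under the minimum of 200 UMIs set for the other genes. Most of the clusters are not fibroblasts, and some of their levels rest on very few UMIs. In the TAC B cells, 39.0 CPM of Cilp came from 2 UMIs of 1 cell and 19.5 CPM of Ltbp2 from 1 UMI. The clusters share 2 libraries and differ in depth, so these coefficients describe the present clusters only.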

How the data were processed

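Hearts of C57BL/6 mice were dissociated and 10x 3-prime libraries made (kit version 3 in the labels, v2 in the paper's methods), 1 for Sham and 1 for TAC, each from 3 to 5 hearts. The authors deposited raw UMI counts per gene and barcode; Cell Ranger 7.1.0 is named in the submitters' processing notes and file headers, another release in the paper's methods, and the build and barcode filter are not given in the sources used here. Of 55357 gene identifiers 94.1% are in GENCODE M21, used for positions.

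The counts were analysed with Python 3.11.15, scipy 1.17.1, scanpy 1.11.5, igraph 0.11.9, pandas 2.3.3, anndata 0.12.19 and numpy 2.4.6. Barcodes under 200 genes (1 per library) and Scrublet doublets (459 Sham, 479 TAC; expected rate 0.8% per 1000 cells) were removed. Median depths were 1964 and 2143 UMIs per barcode, and the median mitochondrial shares of UMIs were low, at 0.452% in Sham and 0.285% in TAC. Each library was clustered (Leiden, resolution 1, 2000 variable genes, 30 components, 15 neighbours, seed 1) without mitochondrial genes and 111 others, namely the 8 genes, their relatives and the listed genes. Clusters were named from at least 3 markers seen in 10% of cells at a log2 fold of 1 or more, with 0.05 added per 10000 UMIs, so names mean cells that look like that type. To compare shares, each cell was reduced once at random to 1000 UMIs. Totals over all barcodes include doublets.

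Intervals are exact Poisson for counts, Clopper-Pearson for shares and conditional binomial for ratios, at 95%. A count of 0 is given the limit of 3 counts. No test was run, as each condition is a single library. The steps were tested on simulated data. The 8 genes, gene lists, markers and alternatives were chosen with earlier results of these data known. The text names the 8 genes, their family relatives, of each list at most 4 genes with the most fibroblast UMIs and any past 2-fold with at least 50, other list genes being named after their values were seen, the 10 genes highest with at least 2 of the 8, and the 5 most like Postn. Alternatives changed the gene minimum, mitochondrial limit, doublets, resolution, clustering, cell typing, denominator, shared barcodes, top cells and thinning depth.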

Additional observations from a re-analysis of the deposited data

Results flagged for a closer look

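Postn had opposite differences between the libraries in 2 cell types: the ratio of TAC to Sham was 0.725 (0.632 to 0.832) in fibroblasts and 1.54 (1.30 to 1.83) in pericytes. The difference between them was not tested, since each condition has 1 library. Over the alternatives the ratio stayed between 0.686 and 0.765 in fibroblasts and between 1.51 and 1.56 in pericytes.

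Inside the fibroblasts, 5 genes differed in direction between the sub-cluster with the most Postn and the remaining cells, again untested, and for 3 of them both intervals exclude 1. Postn was at 2.21 inside and 0.595 outside, Cilp at 1.95 and 0.715, and Thbs4 at 2.12 and 0.156 (0.0294 to 0.534), the last value on 18 Sham and 3 TAC UMIs. A single Sham cell held 11 of those 18 UMIs, so no direction outside is read for Thbs4. Ltbp2 was at 1.84 and 0.839 (0.584 to 1.2) and Comp at 1.23 and 0.550, with an interval that includes 1 outside for Ltbp2 and on both sides for Comp. The sub-cluster had 318 Sham and 90 TAC cells. These intervals take each UMI as independent, although 25 TAC cells held the 224 Postn UMIs inside and 8 held the 35 Thbs4 UMIs. For the share of cells inside with a UMI, the Sham and TAC intervals overlapped for Postn and Thbs4 and not for Cilp.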

How the results depend on the processing

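No paired analysis was possible because the Sham and TAC libraries are single pools without a second numbered replicate. Of 346 values recomputed, 304 stayed inside their 95% interval, 42 moved out of it and 0 reversed. A reversal was counted only for ratios whose main interval excluded 1. The shares and the other ratios could therefore not reverse by this rule. All 40 ratios over all barcodes stayed inside, although the ratio of Cilp, 0.724 without doublets, was then short of 1.5-fold. The ratio of Prg4, 1.65 without the top cell of each library, was then past 1.5-fold. The alternatives on pericytes, on sub-clusters and on the sub-cluster led by cardiomyocyte genes were chosen after seeing the data, and the 22 ratios in pericytes stayed inside.

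Of the ratios in fibroblasts only that of Prg4 left its interval: from 1.46 it was 2.01 with cells typed by their own markers and 1.74 without the top cell of each library. The cause of the first was not tested, and the second leaves out the Sham cell with 56 UMIs.

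The share of UMIs in fibroblasts moved most with cells typed by their own markers: in Sham to 54.6% for Postn, 75.1% for Cilp, 60.5% for Meox1, 65.0% for Ltbp2, 64.2% for Thbs4, 46.7% for Fap, 37.7% for Prg4 and 51.2% for Comp, and in TAC to 77.3% for Cilp, 62.8% for Meox1, 75.7% for Ltbp2, 50% for Thbs4, 44.2% for Fap, 49.4% for Prg4 and 31.5% for Comp. With no doublets removed it was 60.3% and 42.6% for Postn and 56.9% and 48.6% for Fap in Sham and TAC, and 81.7% for Cilp in Sham.

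Shares of cells follow the depth by construction. Postn-positive Sham fibroblasts with another of the 8 genes were 36.4% at 500 UMIs, 66.2% at 2000 and 65.5% without thinning, and Postn-negative ones 14.4%, 40.4% and 39.9%. In TAC the positive ones were 80.0% at 2000 UMIs and 79.4% without thinning, and the negative ones 15.6%, 40.1% and 41.3%. Fibroblasts with at least 2 of the genes were 1.75%, 8.93% and 9.30% in Sham and 1.69%, 8.42% and 8.74% in TAC. Positive cells stayed above negative ones in each of these settings.

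At sub-cluster resolution 0.5 the sub-cluster with most Postn held 28.1% of Sham and 7.24% of TAC fibroblasts. Limits: with 1 pool per condition neither the spread between hearts nor an effect of TAC can be estimated, and the counts of Thbs4 and Comp rest on few cells.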
